A study of Mus musculus with 4 samples.

Results

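Lung tissue breaks down inhaled and blood-borne chemicals with a set of enzymes that were examined here as 9 genes, Cyp2f2, Cyp2b10, Cyp4b1, Cyp1b1, Fmo1, Fmo2, Ces1d, Aldh1a1 and Aldh3a1. They were chosen by name, with earlier results of these data known, as rows of a table of 56748 genes. All 9 passed the filter on low counts that left 15320 genes for testing. Cytochrome P450 enzymes (the Cyp genes) insert oxygen into foreign and natural compounds, flavin monooxygenases (Fmo) oxidize nitrogen and sulfur atoms, carboxylesterases (Ces) split esters, and aldehyde dehydrogenases (Aldh) turn reactive aldehydes into acids. In the mouse lung, Cyp2f2 is a classical gene of club cells, the secretory cells of the airway lining, and it is known for turning naphthalene into a product toxic to those cells.

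The samples were 2 from saline mice and 2 from mice given ADC/cmLumiOpto, all female BALB/cJ, 7 weeks of age when about 2000000 4T1-FLuc cells were injected into the tail vein. 4T1-FLuc is a luciferase-expressing mouse line of triple-negative breast cancer (TNBC), so all 4 samples carry lung metastases of a single line that reached the lung by injection rather than from a primary tumor. The ADC was an anti-CD276 antibody loaded with mertansine, and cmLumiOpto was an AAV vector packed in antibody-coated exosomes that expresses a light-gated mitochondrial channel from a cfos promoter and is switched on by the substrate ViviRen (2 mg/kg). The dose of ADC was 8 mg/kg in the study's methods but 16 mg/kg in the labels, which also give the abbreviation Olap for the treated samples and PBS for the controls, and the series text gives 3 weeks of treatment. The labels describe tumor cells from the lung and the methods describe dissociated lung tissue with 4 samples per group, of which 2 per group were analysed here. The labels do not state that the samples of a group came from separate mice, so the p-values measure only the spread between these samples.

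The libraries held 15263375 to 19675436 counts, and 3 counts corresponded to 0.152 to 0.197 CPM (counts scaled to a common library total), for counting error only. The labelled cell line was checked by markers: summed CPM of 7 tumor epithelium genes (keratins, Epcam and Cdh1) was 2906 and 3242 in the saline and 2852 and 2775 in the treated samples, and lung epithelium uses many of these genes too. Genes of normal lung were present in all 4 samples as well, Sftpc of alveolar type 2 cells at between 174 and 4321 CPM, so each sample held RNA of lung cells.

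Most of the enzyme genes were higher in the treated samples. Of the 9, 7 lay above both saline samples in both treated samples, Cyp1b1 lay below both, and Aldh3a1 overlapped between the groups. Among all tested genes, 28.1% lay above in the same way and 28.8% below. The median log2 fold change of the 9 was 1.93 (7 positive, 2 negative), beside 0.03 for all 15320 genes (7964 positive, 7356 negative). By the quasi-likelihood test of edgeR, adjusted after Benjamini and Hochberg over all tested genes, 0 of the 9 and 0 of 15320 genes (0%) passed the threshold of 0.05, and the lowest adjusted value was 0.0982. Without adjustment, 8 of the 9 had a p under 0.05, 7 of them higher and 1 lower, beside 11.4% and 12.3% of all genes. The exact test of edgeR called 7 of the 9 (7.64% of all genes) and DESeq2 called 6 (8.83% of all genes). The median log2 fold change of the 9 was 2.70 without saline replicate 1 and 1.40 without saline replicate 2. It was 2.02 and 1.65 without treated replicates 1 and 2. In bulk samples such as these, fewer cells of a type and less RNA per cell cannot be told apart.

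**Figure D1:**
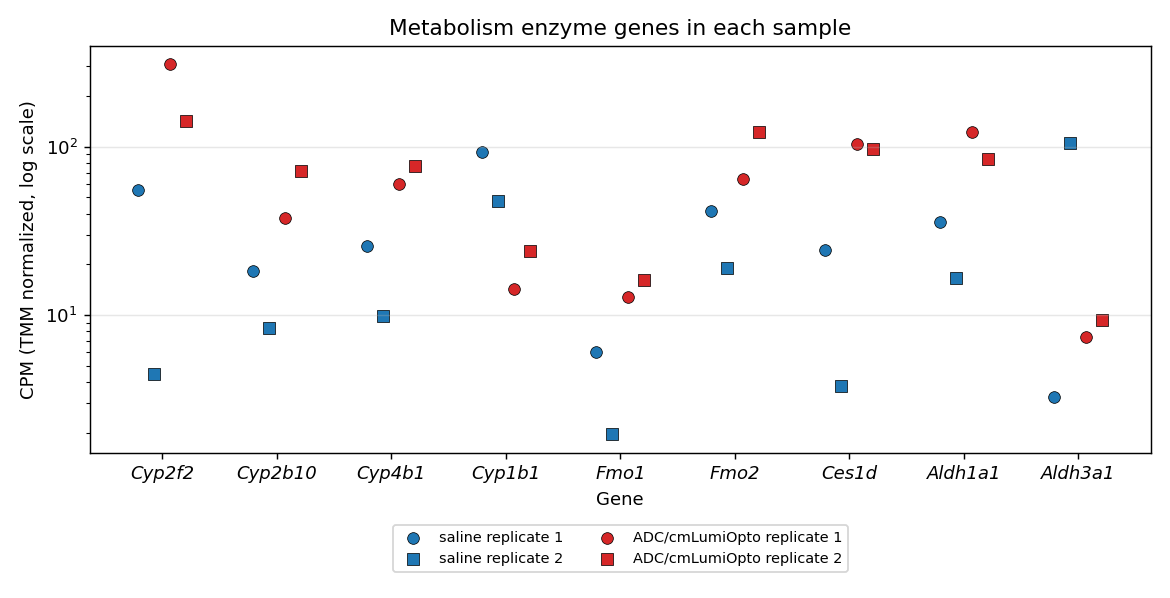
TMM-normalized CPM (log axis) of the 9 enzyme genes in the 2 saline samples (blue) and the 2 ADC/cmLumiOpto samples (red), 1 point per sample, circles for replicate 1 and squares for replicate 2. For 7 genes both red points lie above both blue points, for Cyp1b1 both lie below, and saline replicate 2 is the lowest sample for those 7 genes and the highest for Aldh3a1, at 105 CPM.

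Cyp2f2 (ENSMUSG00000052974, chr7:26819334-26833085, plus strand, in the mm39 coordinates of the deposited table) had the widest range among the P450 genes. Its level was 55.3 and 4.45 CPM in saline replicates 1 and 2, from 884 and 66 counts, and 308 and 141 CPM in treated replicates 1 and 2, from 5431 and 2901 counts. Both treated samples were above both saline samples, and the saline samples themselves differed 12.4-fold. The group means were 29.9 ± 35.9 and 225 ± 118 CPM (SD, n = 2 each). The log2 fold change was 2.91 (SE 0.95), a 7.49-fold higher level, with an adjusted p of 0.143 by edgeR's quasi-likelihood test. It was 5.64 without saline replicate 1, 2.03 without saline replicate 2, 2.24 without treated replicate 1 and 3.36 without treated replicate 2.

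Cyp2b10 (ENSMUSG00000030483, chr7:25597045-25626049, plus strand) belongs to the Cyp2b family, which in the liver is the standard target of the receptor CAR. It was at 18.3 and 8.36 CPM in the saline samples and at 37.5 and 72.0 CPM in the treated samples. The groups did not overlap, with treated replicate 2 highest and saline replicate 2 lowest. The log2 fold change was 2.04 (SE 0.44, adjusted p = 0.103). With 1 sample left out it ranged from 1.49 to 2.70, highest without saline replicate 1. Its close relatives took few reads, with 1 count each for Cyp2b9 and Cyp2b19 over all samples and 0 for Cyp2b13 and Cyp2b23.

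Cyp4b1 (ENSMUSG00000028713, chr4:115481922-115504920, minus strand) is a lung P450 that activates aromatic amines and the pneumotoxin 4-ipomeanol. Its level was 25.8 and 9.91 CPM under saline and 59.9 and 76.2 CPM after treatment. Treated replicate 2 was again the highest sample and saline replicate 2 the lowest. The log2 fold change was 1.93 (SE 0.41, adjusted p = 0.103), a 3.81-fold difference. With 1 sample left out it ranged from 1.40 to 2.77, highest without saline replicate 1.

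Cyp1b1 (ENSMUSG00000024087, chr17:80008966-80022490, minus strand) is a P450 of mesenchymal and tumor cells that metabolizes estrogens and polycyclic hydrocarbons, and it went the other way. It was at 92.5 and 47.5 CPM in the saline samples, from 1480 and 704 counts, and at 14.2 and 24.1 CPM in the treated samples, from 251 and 494 counts. Both treated samples were below both saline samples. The means were 70.0 ± 31.9 and 19.2 ± 6.98 CPM (SD, n = 2 each), a log2 fold change of -1.87 (SE 0.38, adjusted p = 0.101). With 1 sample left out the log2 fold change ranged from -2.30 to -1.32.

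Cyp1b1 and Cyp2b10 were also the genes of the set whose upstream sequence held the core of the xenobiotic response element, the DNA element bound by the aryl hydrocarbon receptor (AhR). RefSeq promoters of GRCm38.p6, a different build from the gene positions above, were found for 6 of the 9 genes (8 start sites). The 250 bases before each start were searched for the letters GCGTG on either strand. The core was present in 2 of the 8 windows (25%), beside 28.2% of 32851 windows of the same length. By window it was thus no more frequent here than among promoters at large. By gene it was present in 2 of 6 (33.3%), a share with no matching background here. The windows of these genes, at chr17:79715062-79715311 (minus strand) and chr7:25897408-25897657 (plus strand), are shown 5′ to 3′ as the windows in which the element was found. Capitals mark the core or its reverse complement.

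Cyp1b1: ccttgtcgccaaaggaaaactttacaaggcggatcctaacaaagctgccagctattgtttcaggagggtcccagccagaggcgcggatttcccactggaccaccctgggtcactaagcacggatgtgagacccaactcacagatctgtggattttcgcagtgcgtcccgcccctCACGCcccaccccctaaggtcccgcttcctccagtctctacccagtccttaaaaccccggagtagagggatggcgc
Cyp2b10: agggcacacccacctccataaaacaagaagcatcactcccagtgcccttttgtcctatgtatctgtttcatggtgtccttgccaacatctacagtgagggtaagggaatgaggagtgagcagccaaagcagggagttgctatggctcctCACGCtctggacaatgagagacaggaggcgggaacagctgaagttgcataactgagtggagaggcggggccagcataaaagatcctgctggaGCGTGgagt

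The Cyp1b1 window holds the core at 1 position and the Cyp2b10 window at 2 positions, and their GC contents are 58.0% and 52.8%. A match is only a description of these letters, and no binding was measured.

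The flavin monooxygenase genes lie side by side on chromosome 1 (minus strand). Fmo2 (ENSMUSG00000040170, chr1:162701886-162726295) is the main form of the lung and Fmo1 (ENSMUSG00000040181, chr1:162657130-162694179) is best known from liver and kidney. Fmo2 was at 41.5 and 19.1 CPM in the saline samples and at 64.5 and 123 CPM in the treated samples (log2 fold change 1.63, SE 0.43, adjusted p = 0.112). Fmo1 was at 6.06 and 1.95 CPM in the saline samples and at 12.8 and 16.0 CPM in the treated samples (log2 fold change 1.83, SE 0.48, adjusted p = 0.112). The groups did not overlap for either gene, and saline replicate 2 was the lowest and treated replicate 2 the highest sample for both. Within the saline group the samples differed 2.18-fold for Fmo2 and 3.10-fold for Fmo1. Without saline replicate 1 the log2 fold changes were 2.28 for Fmo2 and 2.87 for Fmo1, and without saline replicate 2 they were 1.18 and 1.25.

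Ces1d (ENSMUSG00000056973, chr8:93892696-93924466, minus strand) encodes a carboxylesterase that splits ester drugs and lipids. It was at 24.2 and 3.77 CPM in the saline samples and at 104 and 96.8 CPM in the treated samples. The treated samples lay close together, whereas the saline samples differed 6.41-fold, with replicate 2 the lower. The means were 14.0 ± 14.4 and 100.2 ± 4.85 CPM (SD, n = 2 each), and the log2 fold change was 2.83 (SE 0.67, adjusted p = 0.108). It was 4.72 without saline replicate 1 and 2.05 without saline replicate 2. Of its close relatives Ces1a, Ces1b, Ces1c and Ces1h had 0 counts and Ces1e, Ces1f and Ces1g had 42, 32 and 20 counts over the 4 samples.

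Among the aldehyde dehydrogenases, Aldh1a1 (ENSMUSG00000053279, chr19:20470079-20620829, plus strand) oxidizes retinaldehyde to retinoic acid. Its level was 35.8 and 16.5 CPM under saline and 122 and 84.6 CPM after treatment, without overlap and with treated replicate 1 the highest. The log2 fold change was 1.98 (SE 0.37, adjusted p = 0.101), 3.94-fold. With 1 sample left out it ranged from 1.53 to 2.63, highest without saline replicate 1. Aldh1a7, a near copy of Aldh1a1, had 26 and 4 counts in the saline and 332 and 186 counts in the treated samples. How reads common to both genes were assigned is not given in the sources used here, so the split between them is uncertain.

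Aldh3a1 (ENSMUSG00000019102, chr11:61098363-61109247, plus strand), which removes aldehydes formed by lipid peroxidation, had a pattern of its own. It was at 3.25 and 105 CPM in saline replicates 1 and 2, from 52 and 1552 counts, and at 7.42 and 9.36 CPM in the treated samples, from 131 and 192 counts. Saline replicate 2 stood 32.2-fold above saline replicate 1, and both treated samples lay between them. The log2 fold change was -2.68 (SE 1.21, adjusted p = 0.232). It was 1.37 without saline replicate 2 and -3.65 without saline replicate 1, so saline replicate 2 set the direction.

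**Figure D2:**
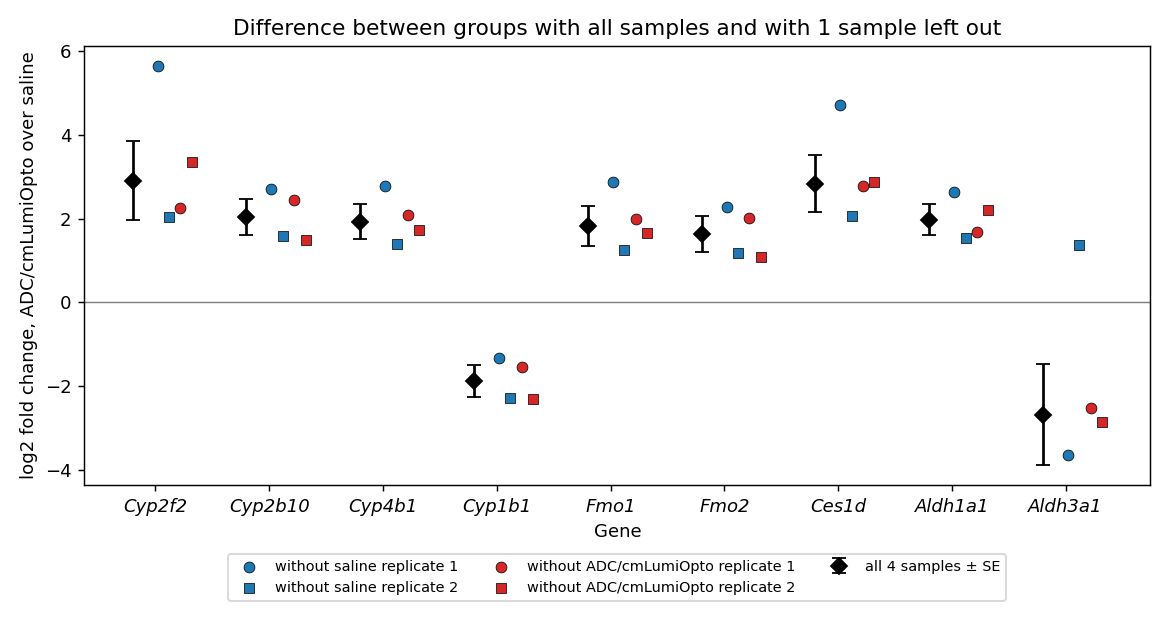
Fitted log2 fold change of each enzyme gene, ADC/cmLumiOpto over saline, with all 4 samples (black diamonds, bars ± SE) and with 1 sample left out at a time (colored points, by the sample left out). Aldh3a1 is the gene whose sign differs, at 1.37 without saline replicate 2, and Cyp2f2 is at 5.64 without saline replicate 1.

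Levels of different genes were compared as RPKM, the CPM per kilobase of gene length. The order of the mean RPKM in the saline samples was Aldh3a1 (27.8), Cyp2f2 (14.7), Cyp1b1 (11.98), Cyp4b1 (7.90), Cyp2b10 (6.30), Ces1d (5.90), Fmo2 (5.40), Aldh1a1 (5.30) and Fmo1 (0.636). Every neighbouring pair in that order overlapped in its sample ranges except Aldh1a1 and Fmo1. In the treated samples Cyp2f2 led with a mean of 111 RPKM, followed by Ces1d (42.3), Cyp4b1 (30.2), Cyp2b10 (25.9), Aldh1a1 (20.9), Fmo2 (16.7), Aldh3a1 (4.32), Cyp1b1 (3.28) and Fmo1 (2.28). Here the ranges of Cyp2f2 and Ces1d, of Ces1d and Cyp4b1, and of Fmo2 and Aldh3a1 did not overlap, and those of the other neighbours did.

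Markers of normal lung cells were higher in the treated samples along with the enzyme genes. The summed CPM of 7 club cell genes was 1097 and 84.4 in the saline and 5916 and 2833 in the treated samples (6 of 7 higher), that of 8 alveolar type 2 genes 1713 and 459 against 5782 and 4994 (7 of 8 higher), and that of 6 alveolar type 1 genes 286 and 117 against 740.0 and 733 (6 of 6 higher). The 6 ciliated cell genes summed to 12.4 and 6.40 against 57.2 and 39.8 CPM (6 of 6 higher). Each of these sums was lowest in saline replicate 2 and higher in both treated samples. The 8 endothelial genes summed to 515 and 374 against 579.7 and 899.7 CPM (7 of 8 higher), and the 5 leukocyte genes to 2721 and 1558 against 5396 and 9528 CPM (5 of 5 higher). The 6 alveolar macrophage genes summed to 126 and 427 against 59.5 and 180 CPM, most of it Chil3, while 3 of the 5 tested genes of that list were higher. The 6 proliferation genes were lower as a sum, at 1115 and 1101 against 673 and 627.5 CPM (6 of 6 lower). None of the genes of these lists passed the adjusted p in edgeR's quasi-likelihood test, and none of these lists held a gene at 0 in all samples. The 5 liver cell markers summed to at most 0.472 CPM, and the 5 fat cell markers to at most 0.975 CPM with Lep at 0 counts.

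Relative to these markers several of the enzyme genes varied much less. The ratio of 2 genes within a sample does not depend on the normalization. Cyp2f2 was at 5.10% and 6.02% of the level of Scgb1a1, the main secreted protein gene of club cells, in the saline samples and at 5.29% and 5.09% in the treated samples. The ratio spanned 1.18-fold over the 4 samples while Cyp2f2 itself spanned 69.2-fold. Against the summed club cell markers, most of which is Scgb1a1, it was 5.04%, 5.27%, 5.20% and 4.99%.

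For Cyp4b1 the steadiest ratio was that to alveolar type 1 markers, at 9.02% and 8.47% under saline and 8.10% and 10.4% after treatment, a 1.28-fold span against 7.69-fold for its CPM. The ratio of Fmo1 to the same markers spanned 1.31-fold against 8.21-fold, and that of Aldh1a1 spanned 1.43-fold against 7.38-fold, with 1.36-fold for Aldh1a1 against ciliated cell markers. Fmo2 and Cyp2b10 spanned 1.92-fold and 1.94-fold relative to alveolar type 1 markers, and 1.28-fold and 1.41-fold relative to leukocyte markers. The leukocyte sum changed its make-up, with Lyz2 at 4299 and 2447 CPM and S100a9 at 562 and 3815 CPM in treated replicates 1 and 2. Ratios to that sum therefore mix genes of unlike pattern. Among the 10 marker lists and Scgb1a1, Ces1d had no such steady partner, and its narrowest span was 2.36-fold, relative to alveolar type 2 markers. Single genes other than Scgb1a1 were not used as denominators, and Sftpc and Cbr2 had profiles close to that of Ces1d (given below).

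Cyp1b1 was compared in the same way with fibroblast genes, whose sum was 4078 and 3051 CPM in the saline and 1703 and 1634 CPM in the treated samples. That list divided, with the collagens Col1a1 and Col1a2, Pdgfra and Npnt lower and Tcf21, Inmt and Mfap4 higher. Cyp1b1 was at 2.27% and 1.56% of the sum in the saline samples and at 0.835% and 1.47% in the treated samples, a 2.72-fold span against 6.50-fold for its CPM. No marker list gave Aldh3a1 a span under 9.47-fold. The markers to show were picked after their values were seen, out of 10 marker lists and Scgb1a1 for each gene, and the part of cell composition in the differences was not tested.

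**Figure D3:**
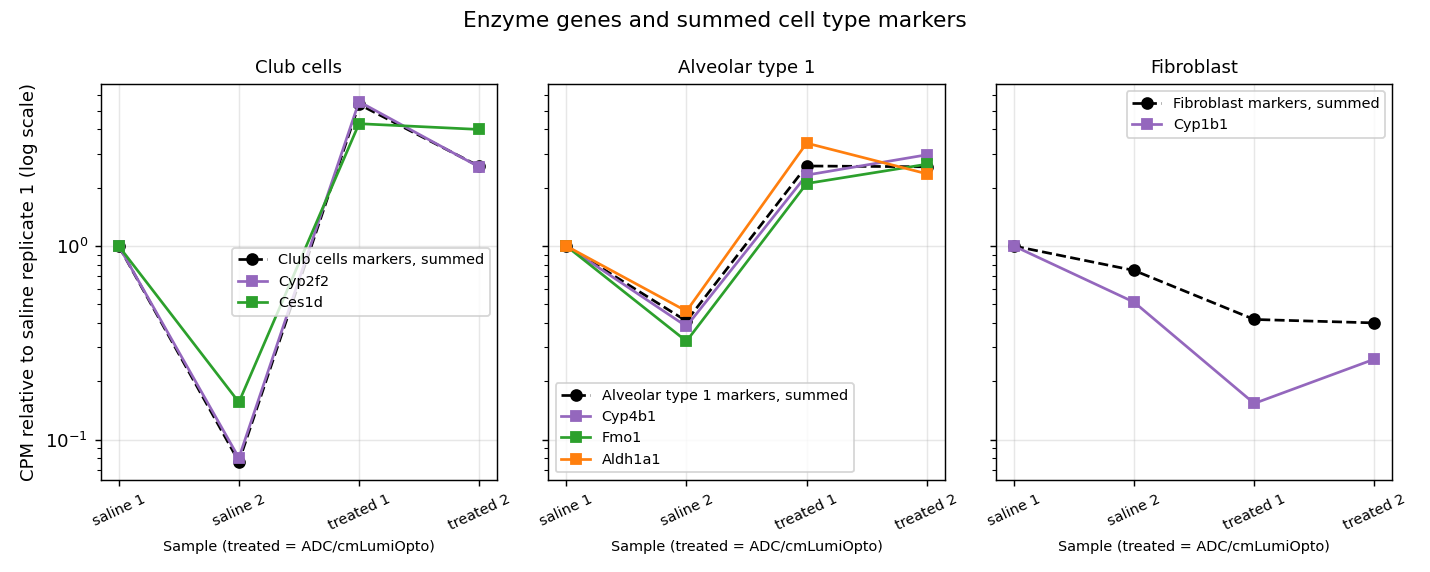
CPM of enzyme genes (solid lines) and summed CPM of cell type markers (dashed lines), each divided by its value in saline replicate 1, in the 4 samples (log axis). Cyp2f2 lies on the club cell line throughout. Ces1d, drawn in the same panel, lies above that line in saline replicate 2 and treated replicate 2 and below it in treated replicate 1. Cyp4b1, Fmo1 and Aldh1a1 lie near the alveolar type 1 line, and Cyp1b1 lies below the fibroblast line in the 3 other samples.

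The other enzymes of these pathways had a smaller median difference, although single genes among them (Rbp4, Cyp1a1, Cyp2a5, Aldh1a7 and Gsta2, named after their values were seen) had larger log2 fold changes than any of the 9. In 10 lists of related genes, 146 genes were in the table and 95 passed the filter. Of these 95, 60 were higher and 35 lower in the treated samples with a median log2 fold change of 0.18. None passed the adjusted p in edgeR's quasi-likelihood test. Without adjustment, 22 higher and 7 lower genes had a p under 0.05 in it, beside 11.4% and 12.3% of all tested genes. The exact test called 14 and DESeq2 11, all of them higher. Among all tested genes, the exact test called 3.96% higher and 3.68% lower, and DESeq2 3.78% higher and 5.05% lower.

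**Figure D4:**
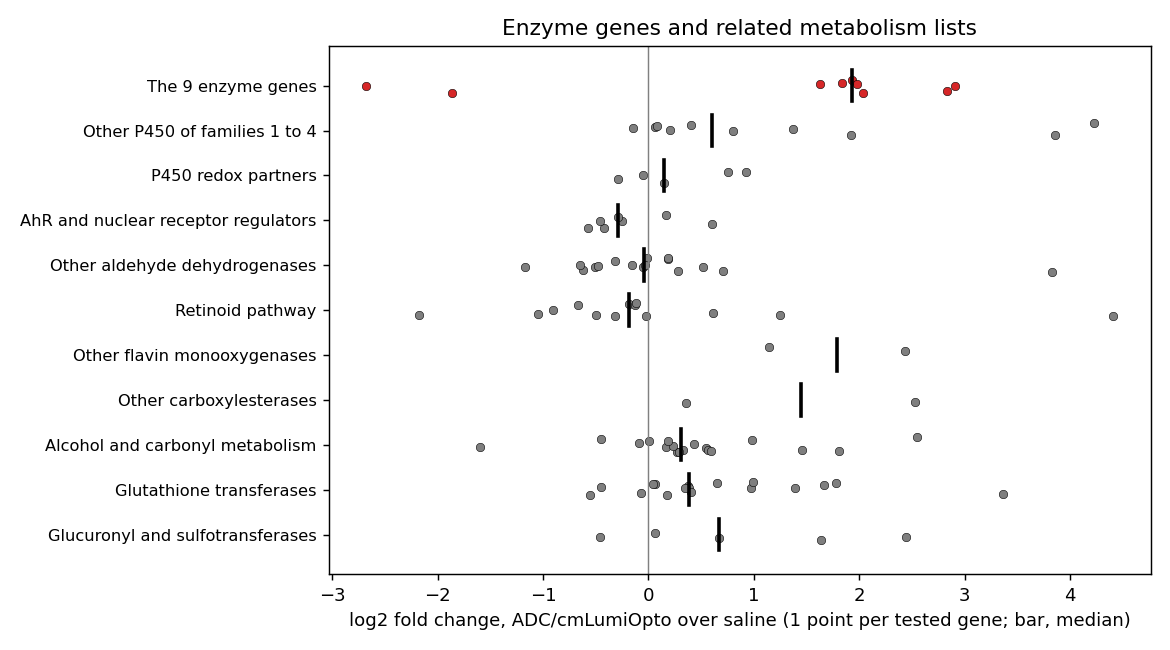
Fitted log2 fold change, ADC/cmLumiOpto over saline, of the 9 enzyme genes (red) and of the tested genes of 10 related lists (grey), 1 point per gene with the median as a bar. The median is 1.93 for the 9 genes and between -0.29 and 1.79 for the lists, of which those of other flavin monooxygenases and carboxylesterases hold 2 tested genes each.

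Among other P450 genes of families 1 to 4, 9 of 10 tested genes were higher (median 0.60). Cyp2s1, an extrahepatic P450 of epithelia, was at 4.38 and 2.70 CPM in the saline and 17.1 and 9.997 CPM in the treated samples (log2 fold change 1.92, SE 0.41, adjusted p = 0.103). Cyp2a5, which oxidizes coumarin and nicotine, had 6 and 2 counts against 107 and 36 (adjusted p = 0.110). Cyp1a1, the most AhR-responsive P450 and named here after its values were seen, had 1 and 0 counts in the saline and 13 and 15 counts in the treated samples, the opposite direction to Cyp1b1. The liver P450 genes Cyp1a2, Cyp3a11 and Cyp2c29 had 0 counts.

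Of the 5 tested genes for partners that pass electrons to P450 enzymes, 3 were higher and 2 lower (median 0.15). Cytochrome b5 (Cyb5a) was at 31.9 and 29.7 CPM in the saline and 64.6 and 52.5 CPM in the treated samples (log2 fold change 0.92, SE 0.19, adjusted p = 0.101). Its reductase family member Cyb5r1 was at 26.3 and 30.9 against 51.4 and 45.1 CPM (adjusted p = 0.112). Unlike the 9 enzyme genes, Cyb5a and Cyb5r1 differed little between the saline samples. The P450 reductase Por, named after its values were seen, was at 129, 128, 145 and 141 CPM.

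Among regulators, 2 of 7 tested genes were higher and 5 lower (median -0.29). The receptor gene Ahr was at 97.6 and 127 CPM in the saline and 68.0 and 83.4 CPM in the treated samples (log2 fold change -0.57, SE 0.20, adjusted p = 0.157). The genes of the receptors CAR (Nr1i3) and PXR (Nr1i2), the classical regulators of Cyp2b and Cyp3a genes in liver, had 0 counts in every sample, which allows up to 0.197 CPM.

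Of 16 other tested aldehyde dehydrogenases, 6 were higher and 10 lower (median -0.04). Aldh1a7 had the smallest p of them, at 1.63 and 0.270 CPM in the saline and 18.8 and 9.07 CPM in the treated samples (log2 fold change 3.83, SE 0.67, adjusted p = 0.0982). Aldh3b1, a relative of Aldh3a1 that acts on lipid aldehydes, was at 28.3 and 30.6 against 37.4 and 58.4 CPM (adjusted p = 0.160). In the retinoid pathway 3 of 13 genes were higher and 10 lower, and the carrier gene Rbp4 had 5 and 0 counts against 72 and 64 (adjusted p = 0.0982) while the receptor gene Rarb had 10 and 20 counts against 3 and 5 (adjusted p = 0.159).

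Of the other flavin monooxygenase genes, Fmo5 had 68 and 30 counts in the saline and 103 and 166 counts in the treated samples (adjusted p = 0.178). Carboxylesterases beyond Ces1d were nearly absent, with 9 of 15 genes at 0 counts. Ces1e had 5 and 0 counts against 18 and 19 (adjusted p = 0.174), and Ces2g had 64 and 31 against 67 and 83 (adjusted p = 0.634).

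Conjugating and carbonyl-reducing enzymes were mostly higher as well, 14 of 17 glutathione transferase genes and 15 of 18 genes of alcohol and carbonyl metabolism. Among all 15320 tested genes, 7964 were higher and 7356 lower. The median log2 fold changes of the 2 lists were 0.39 and 0.31, between the quartiles of all tested genes (-0.32 and 0.43). The glutathione transferase gene Gsta3 was at 6.56 and 7.35 CPM in the saline and 22.3 and 21.8 CPM in the treated samples (log2 fold change 1.67, SE 0.24, adjusted p = 0.0982), with close replicates in both groups. Gstt1 was at 9.81 and 8.16 against 29.6 and 17.8 CPM (adjusted p = 0.106). Cbr2, a carbonyl reductase abundant in lung, was at 179 and 24.9 against 629.9 and 561 CPM (log2 fold change 2.54, adjusted p = 0.130). Akr1c14, an aldo-keto reductase, was at 5.50 and 2.29 against 11.7 and 15.8 CPM (adjusted p = 0.108). Of 5 tested genes for glucuronyl and sulfate transfer 4 were higher, Sult1d1 with 6 and 2 counts against 26 and 29 (adjusted p = 0.115) and Sult5a1 with 14 and 10 against 31 and 63 (adjusted p = 0.149).

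The Aldh3a1 level of saline replicate 2 was followed further. On the log2 scale it exceeded the highest of the other 3 samples by 3.47, the largest such excess among the 15320 tested genes. Nqo1, a quinone reductase, ranked 4 by the same measure with 24.9 and 114 CPM in the saline and 24.0 and 21.9 CPM in the treated samples. NRF2, the factor that responds to oxidants and electrophiles, is known to drive Nqo1. Some other targets of it were higher in the same sample, while its target Hmox1 was lowest there, at 68.5 CPM. Srxn1 was at 55.3 and 121 CPM in the saline and 46.8 and 48.1 CPM in the treated samples. Slc7a11, the cystine carrier, was at 127 and 239 against 38.5 and 46.3 CPM. Of 10 NRF2 target genes 8 were highest in saline replicate 2 (80%), beside 27.9% of all tested genes, and Hmox1 and Osgin1 were not. Of the 8, G6pdx and Me1 were highest by only 0.04 and 0.12 on the log2 scale. Among detoxification genes outside the 10, Gsta4 was highest in that sample at 59.5 CPM, while Cbr3 and Ephx1 were lowest at 3.71 and 15.4 CPM. The NRF2 gene itself (Nfe2l2) was at 110 and 95.8 CPM in the saline and 116 in both treated samples. These genes were chosen after their values were seen, and the cause of the excess was not tested.

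**Figure D5:**
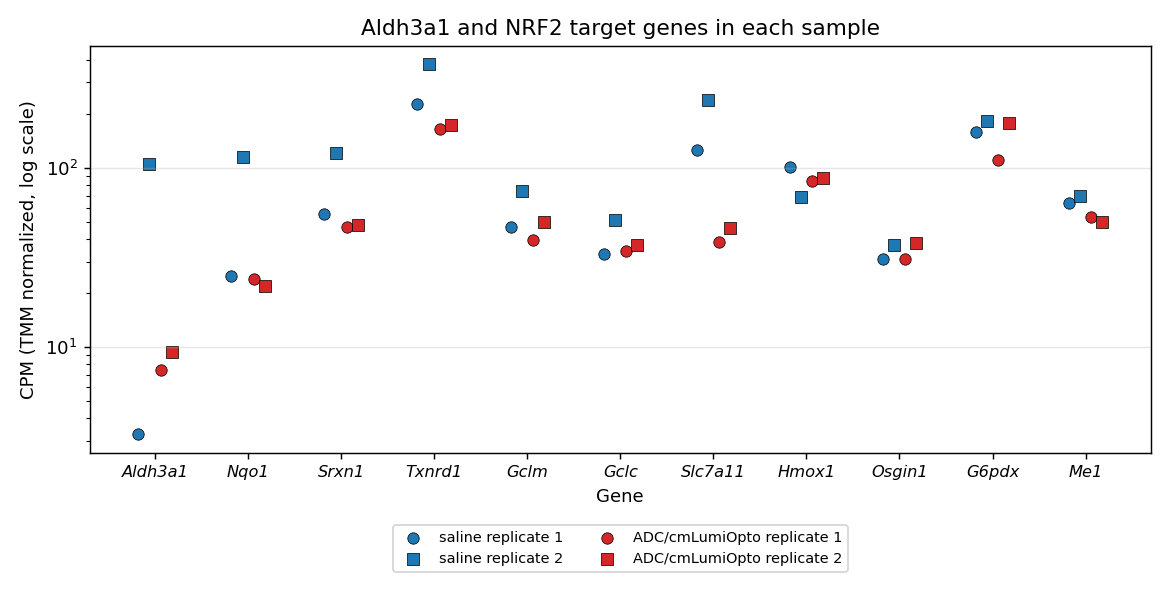
TMM-normalized CPM (log axis) of Aldh3a1 and 10 NRF2 target genes in the 4 samples, blue for saline and red for ADC/cmLumiOpto, circles for replicate 1 and squares for replicate 2. Saline replicate 2 is the highest sample for Aldh3a1 and for 8 of the 10 targets, with the widest gap for Aldh3a1 (105 CPM against 9.36 CPM or less).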

How the data were processed

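Raw counts of reads per gene, deposited by the authors without normalization, were used. The submitters' processing notes name mm39, HISAT2, HISAT and TopHat2, and the study's methods name GRCm38 and HISAT2. The counting program is not given in the sources used here, and labels allow for either a stranded or an unstranded library. Genes that overlap the 9 enzyme genes had at most 6 counts. Positions of all 9 genes differed from GRCm38, with the same span length for 9 of 9. Promoters are from RefSeq (GRCm38.p6).

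The counts were filtered by filterByExpr (minimum count 10, minimum total 15), scaled by TMM and compared in edgeR 4.0.16 (R 4.3.3) by glmQLFit (legacy = FALSE) and glmQLFTest with Benjamini-Hochberg adjustment over all 15320 genes and a threshold of 0.05. SE is the log2 fold change divided by the square root of F. An exact permutation test of 2 against 2 samples cannot go below a p of 0.333. RPKM used the gene lengths of the table. The genes named are the 9, the 2 with the smallest p in each related list, apart from 2 that are not reported here, and others where stated. Likeness of profiles was the Euclidean distance of centred log2 CPM (prior count 2). The procedure was tested on simulated data. Alternatives were DESeq2 1.42.0 and its size factors, no TMM, the exact test, older quasi-likelihood residuals, filters, a gene length trend removed, a replicate block and each sample left out. The 9 genes and all lists were chosen with earlier results of these data known.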

Additional observations from a re-analysis of the deposited data

How the results depend on the processing

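Of 117 values of the 9 genes under 13 alternatives, 88 kept their direction and side of the threshold, 28 kept the direction and passed it and 1 reversed (Aldh3a1, 1.37 without saline replicate 2, range -3.65 to 1.37 with a sample left out). Genes called among all tested were 0 with all samples by edgeR's quasi-likelihood test, 1353 by DESeq2, 1170 by the exact test and 0 to 221 with a sample left out, where the lone sample is assumed to vary like the other group. Of the 9 genes, DESeq2 called 6, the exact test 7, and the fits with a sample left out 0 to 8, with 8 without saline replicate 1 (1.36% of all genes). Their median log2 fold change was 1.40 to 2.70 with a sample left out. The number with a positive log2 fold change was 7 to 8. The cause of these differences was not tested. With the replicate number as a block, 728 genes (4.75%) and 7 of the 9 were called. The labels do not tie the numbers together, so by the labels the samples share only a number. Deviations of same-numbered samples correlated at 0.0985 across 15320 genes. With 2 samples per group, that correlation cannot decide whether same-numbered samples shared a batch. At 29 counts, Fmo1 in saline replicate 2 had the fewest counts of any value of the 9 genes, so counting error limits it most.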

Other observations

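Genes outside the enzyme families were compared with the 9 by the shape of their profile over the 4 samples, as a description with no test, since the distance uses the same values. The genes closest to the mean profile of the 9 were Veph1 (distance 0.0887), Vipr1, AA986860, Ushbp1 and Cd79b. AA986860, the most abundant of them, was at 9.88 and 5.32 CPM in the saline and 20.3 and 25.1 CPM in the treated samples.

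Taken gene by gene, a search added after the data had been seen, the nearest profiles differed between enzymes. Scgb1a1 was the nearest gene to Cyp2f2 (distance 0.227). Clic5, an alveolar type 1 marker, was nearest to Fmo1 (0.131), at 40.5 and 12.5 CPM in the saline and 88.9 and 108 CPM in the treated samples. Epas1, the hypoxia factor gene abundant in endothelium, was nearest to Fmo2 (0.0952), at 112 and 54.4 against 172 and 353 CPM. For Ces1d the nearest gene was Fam183b (0.1396), at 9 and 0 counts against 54 and 61. The surfactant gene Sftpc (0.251) and Cbr2 (0.262) came next. For Aldh1a1 it was Faim2 (0.147), at 7 and 2 counts against 34 and 23, and Aqp5 (0.186) came next. For Cyp2b10 it was Capsl (0.142), at 4 and 1 counts against 13 and 28, and for Cyp4b1 it was Sgpp2 (0.109). Nfasc was nearest to Cyp1b1 (0.166), at 48 and 20 counts against 7 and 15, and the next were Clip3, Adamts12 and Scube3. Aldh3a1 had no close neighbour, and the nearest gene, the neutrophil chemokine gene Cxcl3, was at a distance of 1.77. Within the set, Cyp4b1 and Fmo1 were the most alike pair (0.161).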
